A study of Mus musculus with 4 samples.

Results

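Footprints at the initiation sites of proteasome subunits and of the enzymes that activate and carry ubiquitin were compared across 4 libraries of mouse primary cortical neurons. The members were all transcripts in the table whose gene symbol is Psma to Psmg followed by a digit, Uba1, Uba2, Uba3, Uba6 or Uba7, or begins with Ube2. There were 70 of them among 6352 transcripts, each from a different gene, and no reads were counted for 1 of them (Ube2w) in any library. They comprised 15 genes of the core particle, 20 of the regulatory particle, 4 activators, 3 assembly factors (Psmf1, a proteasome inhibitor, among them), 4 E1 enzymes and 24 E2 enzymes. Psmd5, Psmd9 and Psmd10, counted with the regulatory particle by their names, are chaperones of its assembly. The symbols of 2 members, Psmb1 and Psmd9, were wrong by a letter or digit in the text of the list that pairs transcripts with symbols, as read here from page text, so that the rule found 69 members by the letters as read.

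Neurons were wild type (WT) or carried the Ltn1 knockout (KO), which removes the ubiquitin ligase that acts on stalled ribosomes, and received scramble RNAi or RNAi against Ttc3, another ubiquitin ligase. Before lysis all cultures were held in harringtonine, which stops ribosomes at start codons, at 5 µg/ml for 3 min. Each of the 4 combinations had 1 library and no replicate, so intervals cover counting error only, and any difference between libraries cannot be told apart from a difference between cultures. The RNAi labels of a library conflict. Its title names scramble RNAi where its code ends in TTC and Ttc3 RNAi where its code ends in SC. This is the reverse of what the letters spell. Libraries are therefore called WT SC, KO SC, WT TTC and KO TTC, and both genotype pairs and both code pairs are given, which stay the same whichever label is right. WT and KO in these names are the labels: Ltn1 itself had 4.77 RPM (reads at a site, scaled to all reads of the library) in WT SC and 13.8 in KO SC, with 1.37 in WT TTC and 0 in KO TTC, so that KO SC went against its label at this site, and the deleted stretch of Ltn1 is not given in the sources used here. Ttc3 had at most 3 reads in any library. Libraries held between 1460425 and 3655827 reads, 1 read was worth 0.274 to 0.685 RPM, and 3 reads corresponded to 1.43 RPM in WT SC and 1.12 in KO SC, with 2.05 in WT TTC and 0.821 in KO TTC.

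All 7 neuron markers were listed, with summed levels of 1828 to 2139 RPM. No microglial marker of 7 was listed. The 6 astrocyte markers listed of 7 summed to 76.3 RPM in WT SC and 37.8 in KO SC, with 87.6 in WT TTC and 69.2 in KO TTC, and 5 oligodendrocyte lineage markers of 7 to 33.4, 10.5, 64.4 and 35.8 RPM in the same order. Between the SC libraries, KO had the lower level for 3 astrocyte markers and the higher for 2, and for the oligodendrocyte lineage these were 4 and 1. Gfap was at 1.87 RPM and Mbp at 0 in KO SC, against 18.1 and 9.54 RPM in WT SC, while Slc1a3 had 6.36 and 5.72 RPM and Olig2 7.48 and 7.63 RPM. The summed glial signal was thus lowest in KO SC, and its part in the results below was not tested. In such mixed cultures, fewer cells of a type and fewer footprints per cell cannot be told apart.

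Proteins are marked for destruction with chains of ubiquitin. An E1 enzyme activates ubiquitin, an E2 enzyme takes it over, and an E3 ligase guides it to the substrate. The proteasome then degrades the marked protein. Its core particle is a barrel of stacked rings, with alpha subunits (Psma) that gate the entrance and beta subunits (Psmb) that line the cutting chamber. The regulatory particle caps the barrel, and its Psmc ATPases unfold the substrate while its Psmd subunits bind, deubiquitinate and position it. In neurons this system shapes synapses as well as clearing damaged proteins. LTN1 is an E3 ligase that sends unfinished chains from stalled ribosomes to the proteasome, which is the link between the genotype and these genes.

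Among the members, 12 differed between libraries in at least 1 of the 4 comparisons by an exact binomial test of reads (described below), or 17.4% of the 69 with reads, beside 25.9% of all transcripts with reads. At 5 RPM or more on average, the shares were 23.4% of 47 members and 36.9% of 2314 transcripts. Of the 12 members, 9 had a promoter in the RefSeq table at the outermost start of the gene. The letters TGANNNNGC, a core of the element that NFE2L1 and related factors bind, were found on either strand in the 250 bases before the start in 6 of the 9. With promoters taken in the same way, 15 of 44 members (34.1%) and 34.7% of 19827 genes held them, and 9 promoters are too few to read more into the count. These windows (GRCm38.p6) are shown because NFE2L1 is the known activator of proteasome genes, with the matched letters in capitals, 5′ to 3′ on the strand of the gene (a match on the other strand reads GCNNNNTCA).
Psmb3 at chr11:97703398-97703433, + strand: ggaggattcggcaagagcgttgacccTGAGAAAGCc
Psmd1 at chr1:86064369-86064429, + strand: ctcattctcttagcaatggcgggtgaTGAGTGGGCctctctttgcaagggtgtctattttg
Psmd12 at chr11:107479474-107479527, + strand: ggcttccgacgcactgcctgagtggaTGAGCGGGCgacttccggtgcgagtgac
Psmg1 at chr16:95991164-95991210, - strand: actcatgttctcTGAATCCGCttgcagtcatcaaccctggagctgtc
Ube2c at chr2:164769819-164769879, + strand: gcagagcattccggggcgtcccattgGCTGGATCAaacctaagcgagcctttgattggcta
Ube2g1 at chr11:72607208-72607260, + strand: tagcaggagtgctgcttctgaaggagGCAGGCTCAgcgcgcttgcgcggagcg
The match lies 10 to 2 bases before the start in Psmb3, 28 to 20 in the nearer of 2 matches in Psmd12, and 238 to 230 in Psmg1. With promoters at any listed start, 25 of the 57 members that have one held the letters (43.9%), against 38.7% of 27025 genes of the RefSeq table and 41.8% of the genes in the footprint table. Core and regulatory particle genes held them in 11 of 29 (37.9%) and E2 enzymes in 10 of 19 (52.6%). The share over all members lies near the background. Of 7 motifs searched, this one was kept after the counts were seen. It takes in every match of the stricter TGACNNNGC, which 12.3% of members and 11.5% of genes held. Among the rest, CCAAT, the CCAAT box, was found in 29.8% of members and 37.5% of genes. Of the others, TGACTCAGC, the full AP-1-like form, was in 0 members and 0.43% of genes. GCATGCG was in 2 members (3.51%, beside 3.43% of genes) and the palindrome of nuclear respiratory factor 1 in 1 (1.75%, beside 0.88%). A repeat of GAAA as in interferon response elements was in 3 (5.26%, beside 3.46%).

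The alpha ring was even across the 4 libraries. Psma1 had 78 reads in WT SC, 99 reads in KO SC, then 46 in WT TTC and 158 in KO TTC, which came to 31.5 to 43.2 RPM. Psma6 had 39.1, 32.5, 40.4 and 35.8 RPM in the same order. For both the highest library was less than 1.5-fold above the lowest (1.37-fold and 1.24-fold). The 7 alpha subunits ranged in mean level from 10.8 RPM (Psma7) to 37.2 RPM (Psma1). Psma4 spread most, with 18.6 RPM in WT SC and 10.5 in KO SC, with 9.59 in WT TTC and 17.5 in KO TTC (1.94-fold). None of the 7 passed the exact binomial test on reads in any comparison, and none differed 2-fold. All 7 were higher in KO TTC than KO SC, by 0.06 to 0.69 on the log2(RPM + 1) scale, but this direction depended on the scaling: with libraries set to the same sum over the listed sites 3 of 7 were higher, and with median-of-ratios factors 2 of 7.

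**Figure D1:**
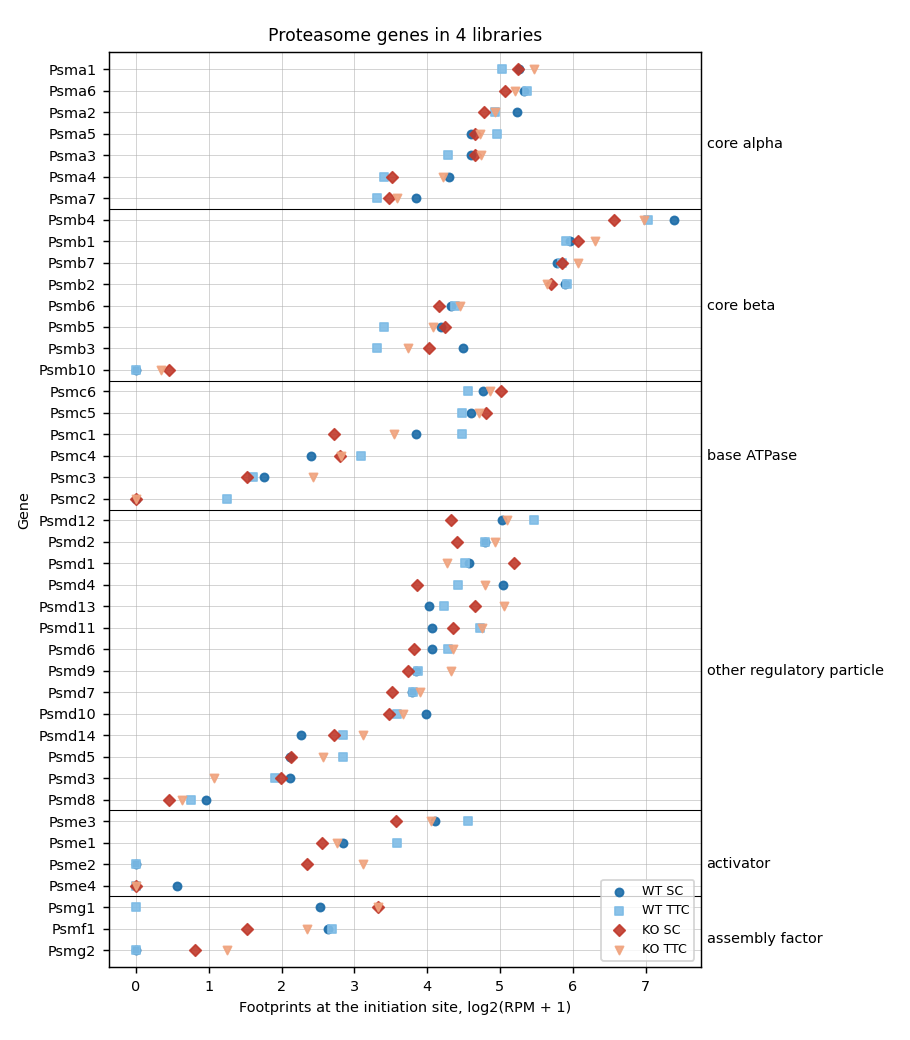
Footprints at the initiation sites of proteasome genes as log2(RPM + 1) (horizontal axis), for each gene (vertical axis, grouped by class and ordered by mean level), with 1 symbol per library. Core subunits lie close together in the 4 libraries, with Psmb4 the highest at 93.9 to 166 RPM, and Psme2 has points above 0 in the KO libraries only. Where symbols coincide, 1 can hide another.

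In the beta ring, Psmb4 stood out by its level. This non-catalytic subunit had 349 reads in WT SC (166 RPM) and 251 in KO SC (93.9 RPM), with 189 in WT TTC (129 RPM) and 457 in KO TTC (125 RPM). It made up 28.3% of the reads of the core particle in WT SC and 19.4% in KO SC, with 25.3% in WT TTC and 22.5% in KO TTC. In KO SC its level was 1.77-fold below that in WT SC (adjusted p = 3.13e-09, exact binomial test with Benjamini-Hochberg adjustment over 5355 transcripts with reads), while WT TTC and KO TTC differed by 0.05 (adjusted p = 0.95). It was also 1.29-fold lower in WT TTC than in WT SC (adjusted p = 0.047) and 1.33-fold higher in KO TTC than KO SC (adjusted p = 0.0035). WT SC was thus the high library and KO SC the low one, with both TTC libraries between them. The gene lies at chr3:94884324-94886958 (GRCm38), close to Psmd4 at chr3:95032688-95042614, which was also lowest in KO SC.

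The catalytic subunits showed smaller differences. Psmb7, the trypsin-like subunit, had 53.9 RPM in WT SC and 56.9 in KO SC, with 56.8 in WT TTC and 66.5 in KO TTC. Psmb6, the caspase-like subunit, had 19.1, 16.8, 19.9 and 20.8 RPM. Psmb5, the chymotrypsin-like subunit and the main target of bortezomib, had 17.2, 18.0, 9.59 and 15.9 RPM. WT TTC was low for Psmb5, by 0.78 against WT SC (adjusted p = 0.27), and no comparison of these subunits passed the test. Psmb1 and Psmb2, non-catalytic subunits, had 58.9 to 78.2 and 49.2 to 59.6 RPM. Psmb3, also non-catalytic, had 21.5 RPM in WT SC and 15.3 in KO SC, with 8.90 in WT TTC and 12.3 in KO TTC, and its level in WT TTC was 2.41-fold below WT SC (45 and 13 reads, adjusted p = 0.046). Psmb10, a catalytic subunit of the immunoproteasome, had 0 reads in both WT libraries and 1 read in each KO library, all under the floor of 3 reads. RefSeq lists copies of Psma5, Psmb5, Psmb6 and Psmb7 under names ending in ps, and how reads that match several places were treated is not given in the sources used here.

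The 6 ATPases of the base spanned more than an order of magnitude. Psmc6 had 26.2 RPM in WT SC and 31.4 in KO SC, with 22.6 in WT TTC and 28.2 in KO TTC, and Psmc5 had 23.4, 26.9, 21.2 and 25.2 RPM. Both were even, within 1.39-fold and 1.27-fold. Psmc1 had 13.4 RPM in WT SC and 5.61 in KO SC, with 21.2 in WT TTC and 10.7 in KO TTC (28, 15, 31 and 39 reads). Its level was 2.38-fold below WT in the SC pair (adjusted p = 0.070) and 1.99-fold below in the TTC pair (adjusted p = 0.064), which both missed the threshold of 0.05. The 2 KO libraries thus lay below the 2 WT libraries. Psmc4 had 4.29 to 7.53 RPM and Psmc3 1.87 to 4.38 RPM. Psmc2 had 2 reads in WT TTC and 0 in the other libraries, too few to compare.

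Among the 14 Psmd genes, Psmd4, Psmd1 and Psmd12 differed between libraries. Psmd4, a ubiquitin receptor of the regulatory particle, had 67 reads in WT SC (32.0 RPM) and 36 in KO SC (13.5 RPM), with 30 in WT TTC (20.5 RPM) and 98 in KO TTC (26.8 RPM). KO SC was 2.37-fold below WT SC (adjusted p = 0.0012) and 1.99-fold below KO TTC (adjusted p = 0.0040). The TTC pair differed the other way, by 0.37 (adjusted p = 0.60). Psmd1, the largest scaffold subunit, had 22.9, 35.5, 21.9 and 18.3 RPM in WT SC, KO SC, WT TTC and KO TTC, so that KO SC was high, and KO TTC was lower than KO SC by 0.92 (adjusted p = 6.2e-04). Psmd12, a lid subunit, had 31.5, 19.1, 43.1 and 33.1 RPM, with KO SC low and 1.73-fold below KO TTC (adjusted p = 0.0091).

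Psmd13, another lid subunit, was higher in both KO libraries. It had 15.3 RPM in WT SC and 24.3 in KO SC, with 17.8 in WT TTC and 32.3 in KO TTC. Ratios of KO to WT were 1.59-fold in the SC pair (adjusted p = 0.20) and 1.81-fold in the TTC pair (adjusted p = 0.065), and neither passed the test. Psmd2, a scaffold subunit like Psmd1, had 26.7, 20.2, 26.7 and 29.5 RPM. Psmd14, the deubiquitinase of the lid, had 3.82, 5.61, 6.16 and 7.66 RPM, its highest level in KO TTC, with 8 to 28 reads. The remaining Psmd genes had mean levels of 0.64 RPM (Psmd8) to 21.6 RPM (Psmd11), and none of them passed the test in any comparison.

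Of the activators, which open the core particle in place of the regulatory particle, Psme2 was the 1 that passed the test. It encodes the beta subunit of the PA28 ring and lies at chr14:55587440-55591101, beside Psme1 at chr14:55578494-55581527. Psme2 had 0 reads in either WT library, 11 in KO SC (4.12 RPM) and 28 in KO TTC (7.66 RPM). Both KO libraries lay above both WT libraries. Against the floor of 3 reads in the WT library, its level was 2.88-fold higher in KO SC (adjusted p = 0.048) and 3.73-fold higher in KO TTC (adjusted p = 0.0055). Such ratios put 3 reads in place of 0 and are not lower limits that allow for counting error. A pattern of 0 reads in both WT libraries and at least 10 in each KO library was found in 23 of 6352 transcripts, and the reverse in 6. Psme2 was the only member among the former, and no member was among the latter. RefSeq lists a copy, Psme2b, that could share its reads.

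Psme1, its partner in the ring, had 6.20 RPM in WT SC and 4.86 in KO SC, with 11.0 in WT TTC and 5.74 in KO TTC. Its level in KO was below WT by 0.30 between the SC libraries and 0.83 between the TTC libraries, with adjusted p = 0.86 and 0.32. The partners therefore lay on opposite sides of 0 in both pairs. Psme3, which forms a nuclear activator of its own, had 16.2, 10.8, 22.6 and 15.6 RPM. Psme4 had 1 read in all.

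The chaperone Psmg1, which helps to build the alpha ring, had 10 reads in WT SC (4.77 RPM) and 24 in KO SC (8.98 RPM), with 0 in WT TTC and 33 in KO TTC (9.03 RPM). WT TTC was the low library. Against 3 reads there, KO TTC was 4.39-fold higher (adjusted p = 0.0012), while KO SC was 1.88-fold above WT SC (adjusted p = 0.41). Psmg1 was 1 of 46 transcripts with 0 reads in WT TTC, the shallowest library, and at least 10 in each of the others. Psmg2, its partner, had 0, 2, 0 and 5 reads. Psmf1, the inhibitor PI31, had 5.25, 1.87, 5.48 and 4.10 RPM, with 5 to 15 reads and no comparison past the test.

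**Figure D2:**
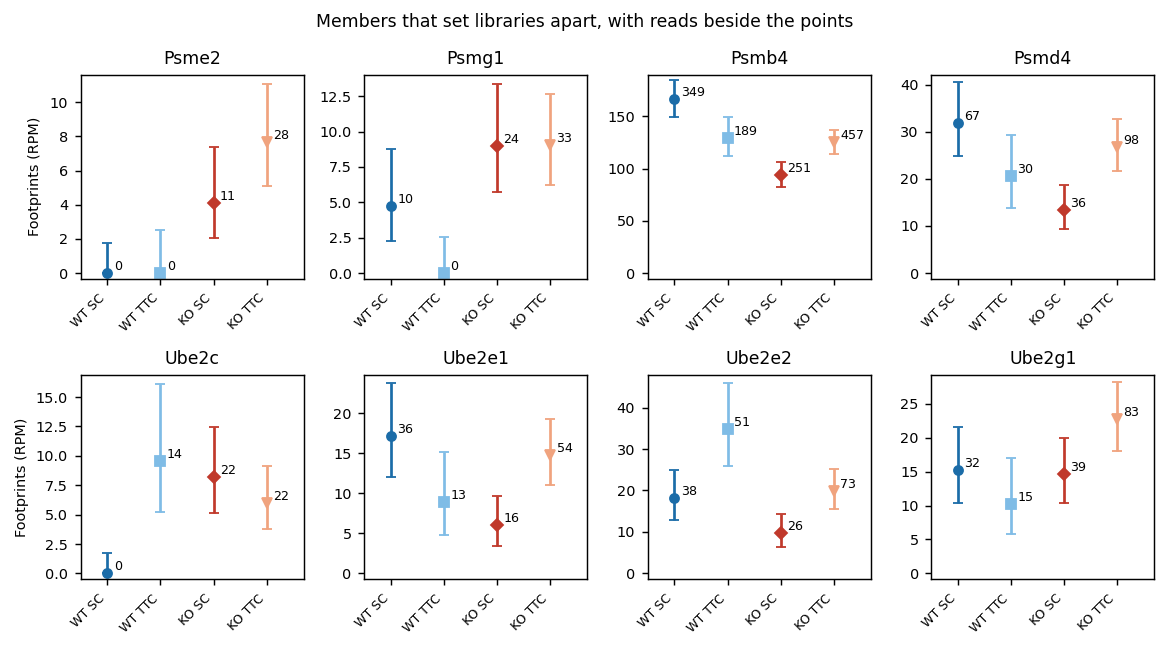
Footprints in RPM (vertical axes, separate for each gene) of 8 members in the 4 libraries (horizontal axes), with exact Poisson 95% intervals as bars and reads printed beside the points. Psme2 is at 0 in both WT libraries, Psmg1 in WT TTC and Ube2c in WT SC, and Psmb4, Psmd4, Ube2e1 and Ube2e2 are lowest in KO SC.

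Of the 4 E1 enzymes listed, Uba1 and Uba6 serve ubiquitin, Uba2 serves SUMO and Uba3 serves NEDD8. Uba1, the main E1 of ubiquitin, had 2 reads in KO SC and 0 elsewhere at the listed site, so its level was not measurable here. Uba6, the second E1 of ubiquitin, had 2.39 RPM in WT SC and 5.61 in KO SC, with 1.37 in WT TTC and 3.01 in KO TTC (2 to 15 reads), which was 2.35-fold and 2.20-fold higher in KO with adjusted p = 0.41 and 0.72. Uba2, the E1 subunit for SUMO, was the highest, with 21.0, 25.8, 24.7 and 36.7 RPM, and KO exceeded WT by 0.29 between the SC libraries and 0.55 between the TTC libraries (adjusted p = 0.67 and 0.21). Uba3, the E1 subunit for NEDD8, had 9, 4, 4 and 12 reads in the same order of libraries. No E1 passed the test. Uba7 is not among the members.

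Of the 24 E2 enzymes, 5 differed between libraries by the binomial test in at least 1 comparison, or 21.7% of the 23 with reads, beside 25.9% of all transcripts. At 5 RPM or more on average, the shares were 35.7% of 14 E2 enzymes and 36.9% of transcripts. Ube2c, which works with the anaphase-promoting complex in dividing cells, had no read in WT SC, 22 in KO SC (8.23 RPM), then 14 in WT TTC (9.59 RPM) and 22 in KO TTC (6.02 RPM). WT SC alone was low. Against 3 reads in WT SC, KO SC was 5.75-fold higher (adjusted p = 2.9e-04) and WT TTC 6.70-fold higher (adjusted p = 1.8e-04), while the TTC pair differed by 0.59 in the other direction (adjusted p = 0.54). It was 1 of 15 transcripts with 0 reads in WT SC and at least 10 in each of the others.

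The closely related Ube2e enzymes did not share a pattern. Ube2e1, at chr14:18282726-18332004, had 17.2 RPM in WT SC and 5.99 in KO SC, with 8.90 in WT TTC and 14.8 in KO TTC (36, 16, 13 and 54 reads). KO SC was 2.87-fold below WT SC (adjusted p = 0.0097) and 2.47-fold below KO TTC (adjusted p = 0.010), and in the TTC pair KO was higher by 0.67 (adjusted p = 0.40). Ube2e2, its neighbour at chr14:18573563-18894284, had 18.1, 9.73, 34.9 and 20.0 RPM (38, 26, 51 and 73 reads). The KO library was below WT in both pairs, 1.86-fold in the SC pair (adjusted p = 0.13) and 1.75-fold in the TTC pair (adjusted p = 0.042), and the TTC library was above SC in both genotypes, 2.05-fold in KO (adjusted p = 0.011) and 1.93-fold in WT (adjusted p = 0.027). Ube2e3, on another chromosome, was the highest E2 with 57.2, 43.0, 46.6 and 38.3 RPM and no comparison past the test.

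Ube2g1 and Ube2g2, E2 enzymes of degradation at the endoplasmic reticulum, changed in different libraries. Ube2g1 had 15.3 RPM in WT SC and 14.6 in KO SC, with 10.3 in WT TTC and 22.7 in KO TTC, and KO TTC was 2.21-fold above WT TTC (adjusted p = 0.046). Ube2g2 had 25, 32, 15 and 18 reads, and with 4.92 RPM KO TTC was low, 2.43-fold below KO SC (adjusted p = 0.020). Ube2j1 and Ube2j2, membrane-bound enzymes of the same pathway, had at most 10 and 4 reads in any library. Ube2b, which ubiquitinates histones and acts in DNA repair, was higher in both KO libraries, with 9.54, 16.5, 6.85 and 15.3 RPM and ratios of 1.73-fold and 2.24-fold (adjusted p = 0.24 and 0.12), neither past the test.

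The hybrid E2 and E3 enzyme Ube2o had 20.0, 20.6, 25.3 and 28.2 RPM in WT SC, KO SC, WT TTC and KO TTC. Ube2l3, which serves RING-between-RING ligases such as parkin, had 17.2, 12.3, 11.6 and 13.1 RPM. Neither passed the test. Ube2m, for NEDD8, had 14.8, 10.1, 15.7 and 14.2 RPM. Ube2f, the other E2 of NEDD8, had 4 and 9 reads in WT SC and KO TTC and 0 in WT TTC and KO SC. Ube2n, which builds chains on lysine 63, had 2, 3, 2 and 17 reads (adjusted p = 0.070 between the KO libraries).

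**Figure D3:**
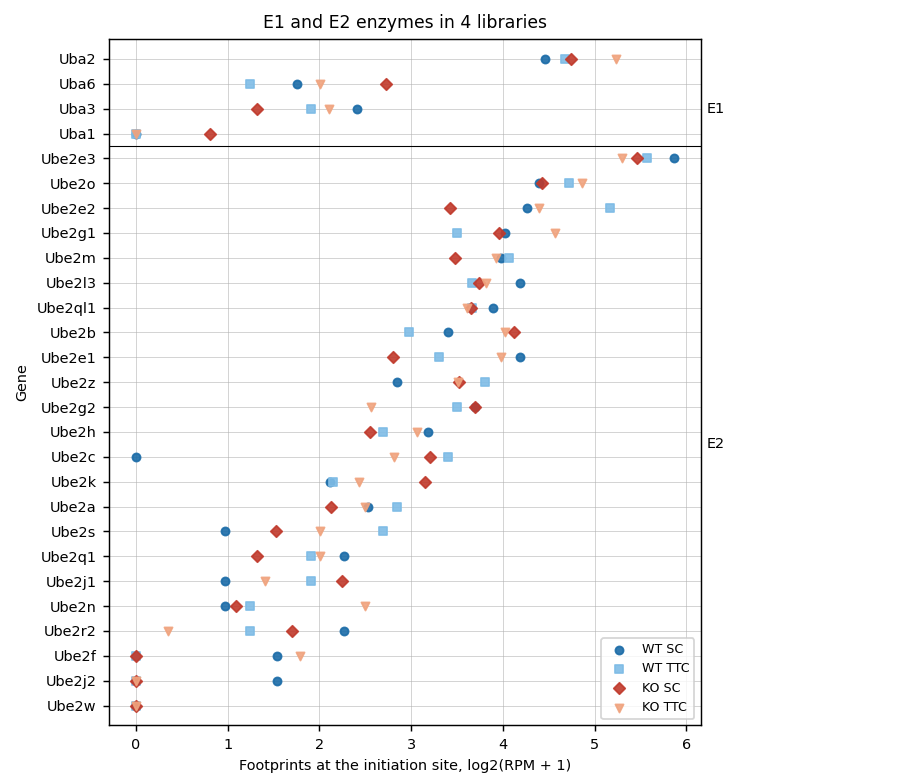
Footprints at the initiation sites of E1 and E2 enzymes as log2(RPM + 1) (horizontal axis), for each gene shown (vertical axis, ordered by mean level within its class), with 1 symbol per library; 1 E2 enzyme is not shown. Ube2c is at 0 in WT SC alone, and Ube2e3 is the highest E2, at 38.3 to 57.2 RPM. Where symbols coincide, 1 can hide another.

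Taking the classes side by side, the summed level of the core particle was 589 RPM in WT SC (95% interval 557 to 623) and 484 in KO SC (458 to 511), with 511 in WT TTC (475 to 550) and 556 in KO TTC (532 to 581). The regulatory particle had 282, 262, 303 and 319 RPM, and the E2 enzymes 239, 213, 238 and 242 RPM. KO SC was the lowest library for all these sums in the RPM as deposited, but the order depended on the scaling: with libraries set to the same sum over the listed sites, WT TTC was the lowest for the core (484 RPM, KO SC 518) and the E2 enzymes (226, KO SC 228), and with median-of-ratios factors WT TTC was again the lowest for both and WT SC for the regulatory particle. The sum of the core over that of the regulatory particle was 2.09 in WT SC and 1.84 in KO SC, with 1.69 in WT TTC and 1.74 in KO TTC, and without Psmb4 the SC libraries were nearly equal, at 1.499 in WT SC and 1.486 in KO SC, with 1.26 in WT TTC and 1.35 in KO TTC. All 70 members summed to 1171, 1024, 1121 and 1203 RPM, which was 1.84%, 1.69%, 1.64% and 1.80% of the reads at listed sites, lowest in WT TTC.

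In the SC pair, the median difference KO minus WT on the log2(RPM + 1) scale was -0.17 over the core (9 lower and 6 higher, where 46.3% and 38.0% of all transcripts were), -0.11 over the regulatory particle (11 lower, 8 higher) and -0.15 over the E2 enzymes (13 lower, 10 higher). Over transcripts at 5 RPM or more on average it was -0.11 (58.0% lower and 41.7% higher), and over all transcripts 0. The classes thus sat close to other transcripts of such levels. In the TTC pair the median was 0.27 over the core (4 lower and 11 higher, where 42.1% and 43.7% of all transcripts were), 0.08 over the regulatory particle (8 lower, 12 higher) and 0.00 over the E2 enzymes (11 lower, 11 higher), against -0.05 over transcripts at 5 RPM or more on average. Of the transcripts at this level, 54.1% were lower and 45.5% higher in the TTC pair. The core median was thus below 0 in one genotype pair and above 0 in the other, and this held with both other scalings (-0.10 and -0.04, then 0.30 and 0.32).

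Between the KO libraries, TTC exceeded SC by a median of 0.13 over the core (4 lower and 11 higher, where 37.1% and 51.5% of all transcripts were), 0.39 over the regulatory particle (4 lower, 15 higher) and 0.04 over the E2 enzymes, against 0.17 over transcripts at 5 RPM or more on average. Of the transcripts at this level, 38.2% were lower and 61.8% higher in KO TTC. Rescaling to the same sum took the regulatory median to 0.26 and the core median to -0.01, and median-of-ratios factors took them to 0.23 and -0.03. Between the WT libraries the medians were -0.23 over the core (9 lower and 5 higher, where 40.9% and 43.3% of all transcripts were), 0.02 over the regulatory particle and -0.21 over the E2 enzymes, against 0.10 over transcripts at 5 RPM or more on average, and the regulatory median fell below 0 with both scalings (-0.07 and -0.07). Of the transcripts at 5 RPM or more, 44.0% were lower and 56.0% higher in WT TTC in the RPM as deposited. With either scaling, 13 of 15 core genes were lower in WT TTC than in WT SC, against 9 of 15 in the RPM as deposited. Both scalings lower WT TTC against WT SC for every transcript, and over all 70 members the number lower rose from 35 to 44. The share of all transcripts that were lower under these scalings is not given here. The 4 comparisons share libraries and are not independent of each other, and members are not replicates of a condition.

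**Figure D4:**
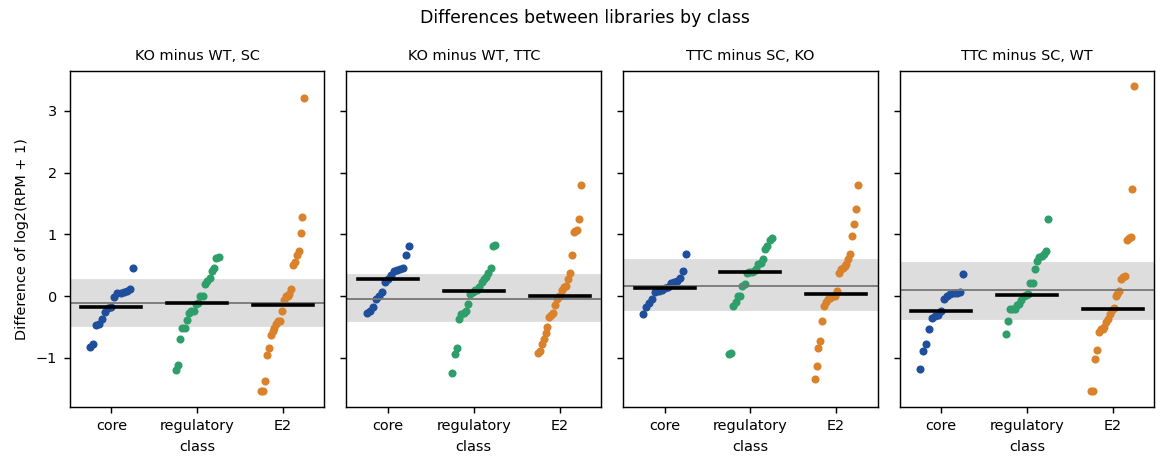
Differences of log2(RPM + 1) between libraries (vertical axis) for each member of the core particle, regulatory particle and E2 enzymes (horizontal axis), in the 4 comparisons, with black bars at the class medians. Grey lines and bands are the median and the middle 50% of transcripts at 5 RPM or more on average. Core points lie between -1.18 and 0.81, and E2 points reach 3.21 and 3.40, which are Ube2c.

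Members also differed in how far apart the 4 libraries lay. The highest library was above the lowest by a median of 1.37-fold over the core, 1.63-fold over the regulatory particle and 2.11-fold over the E2 enzymes on the (RPM + 1) scale. These classes differ in level, with median mean levels of 25.8, 13.7 and 7.55 RPM, and low counts alone widen the spread. Among members averaging at least 10 RPM it was 1.36-fold over 14 core genes, 1.51-fold over 13 genes of the regulatory particle and 1.71-fold over 10 E2 enzymes, beside 1.71-fold over 1357 transcripts of at least that level.

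Few members passed a threshold. In the SC pair 7 members were at least 2-fold lower and 4 at least 2-fold higher in KO, or 10.0% and 5.71% of 70, where 9.12% and 8.44% of all transcripts were. In the TTC pair 1 member was lower and 8 were higher, where 7.98% and 12.2% of all transcripts were. Between KO TTC and KO SC, 2 were lower and 3 higher (background 7.30% and 12.5%), and between WT TTC and WT SC 5 were lower and 3 higher (12.4% and 13.4%). By the exact binomial test 3 members of 68 with reads were lower (Psmb4, Psmd4 and Ube2e1) and 2 higher (Ube2c and Psme2) in the SC pair, beside 4.74% and 2.63% of all transcripts. In the TTC pair 1 of 66 was lower (Ube2e2) and 3 higher (Psme2, Psmg1 and Ube2g1), beside 4.41% and 3.14%. Between the KO libraries 2 of 66 were lower in TTC (Psmd1 and Ube2g2) and 5 higher (Psmb4, Psmd4, Psmd12, Ube2e1 and Ube2e2), beside 5.71% and 10.9%. Between the WT libraries 2 of 65 were lower in TTC (Psmb3 and Psmb4) and 2 higher (Ube2c and Ube2e2), beside 3.82% and 7.02%. The share of members was above that of all transcripts in 1 of these 8 counts past 2-fold and in 2 of the 8 by the binomial test, and below it in the others (1.52% to 7.58% of members by the binomial test). The binomial test called a larger share of transcripts at higher levels. At 5 RPM or more on average, it called 23.4% of 47 members and 36.9% of 2314 transcripts in at least 1 comparison. The differences between these shares were not tested, and the binomial test compares 2 libraries, not 2 conditions.

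In both genotype pairs, and at 5 RPM or more on average, 2 members of 47 were at least 1.5-fold lower in KO (Psmc1 and Ube2e2), where 5.10% of transcripts were, and 3 were at least 1.5-fold higher (Psmd13, Psmg1 and Ube2b), where 1.86% were. Psme2, with a mean of 2.94 RPM, was under this limit. The opposite sign in the pairs was found in 22 of the 47 (46.8%), beside 41.8% of transcripts at this level. An exact test of the interaction of genotype and code asked whether the KO difference depended on the pair. It holds counting error only and, adjusted over 4642 transcripts, called 3.96% of them. Among the members it called 4. These were Ube2c (adjusted p = 7.4e-04), Psmb4 (adjusted p = 7.6e-04), Psmd4 (adjusted p = 0.0061) and Ube2e1 (adjusted p = 0.014).

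**Figure D5:**
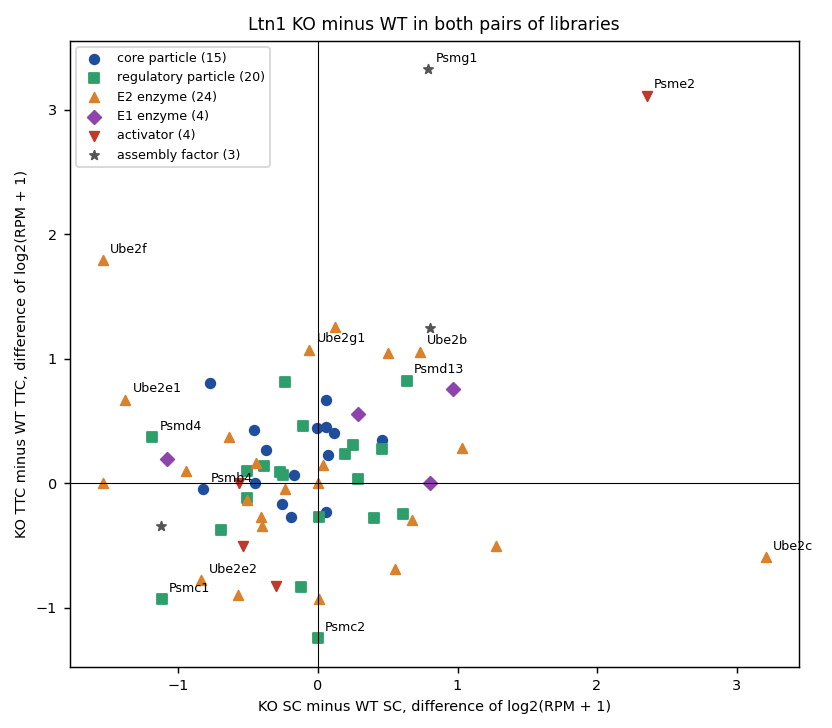
KO minus WT difference of log2(RPM + 1) between the SC libraries (horizontal axis) and between the TTC libraries (vertical axis) for each of the 70 members, with a colour and symbol per class. Psme2 and Psmg1 lie at the upper right, at 2.35 and 3.11 and at 0.79 and 3.33, Psmc1 and Ube2e2 at the lower left, and Ube2c at the far right just below 0.

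A fit of genotype and code over the 4 libraries left 1 residual degree of freedom. By limma, 0 of 4548 transcripts averaging at least 1 RPM passed an adjusted p of 0.05 for genotype, and 0 for code. By edgeR's quasi-likelihood test on reads there were also 0 for either term. At an unadjusted p of 0.05 limma gave 209 lower and 164 higher in KO (4.60% and 3.61%), with 2 and 4 among the 62 members tested, and 238 lower and 453 higher in TTC (5.23% and 9.96%), with 0 and 3 among the members. For Psme2 the limma difference had an unadjusted p of 0.0034 and an adjusted p of 0.45.

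Other genes of the pathway were read from a list of 38, of which 28 were in the table. The exact binomial test called 2 lower and 1 higher in KO in the SC pair and 2 lower and 0 higher in the TTC pair (background 4.74% and 2.63%, then 4.41% and 3.14%). Adrm1, a ubiquitin receptor of the regulatory particle outside the Psm names, had 20.0 RPM in WT SC and 41.2 in KO SC, with 25.3 in WT TTC and 35.6 in KO TTC, and was higher in the SC pair by 1.00 (adjusted p = 0.0018) and by 0.47 in the TTC pair (adjusted p = 0.32). It differed from its fellow receptor Psmd4, whose lowest level was in KO SC. Nploc4, a cofactor of the segregase p97, had 11.4, 4.12, 2.05 and 1.64 RPM and was lower in KO SC than WT SC by 1.28 (adjusted p = 0.0495). The other genes called in a genotype pair did not reach 2-fold and are named after their values were seen. Ubb, a polyubiquitin gene, had 149, 117, 106 and 130 RPM and was lower in KO SC than WT SC by 0.34 (adjusted p = 0.043). Ubqln1, a shuttle factor that carries ubiquitinated proteins to the proteasome, had 45.3, 33.7, 87.6 and 44.0 RPM, so that WT TTC was high, and KO TTC was below it by 0.98 (adjusted p = 3.0e-06). Vcp, which encodes p97, had 26.2, 34.8, 47.2 and 24.6 RPM and was lower in KO TTC than WT TTC by 0.91 (adjusted p = 0.0028), while the SC libraries differed by 0.39 the other way (adjusted p = 0.37), with an adjusted p of 0.0062 by the exact interaction test.

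The code of the library separated other genes of this list. Usp14, the deubiquitinase bound to the proteasome, had 68.7 RPM in WT SC and 59.5 in KO SC, with 30.1 in WT TTC and 36.4 in KO TTC, and TTC was below SC by 1.16 in WT (adjusted p = 3.9e-05) and by 0.69 in KO (adjusted p = 6.2e-04). Ufc1, the E2-like enzyme of UFM1, had 11.4, 11.2, 2.74 and 2.74 RPM, and TTC was below SC in WT (adjusted p = 0.037) and in KO (adjusted p = 6.8e-04). The genotype pairs of Ufc1 were nearly equal, at differences of -0.03 and -0.00. Rps27a, which encodes ubiquitin fused to a ribosomal protein, had 13.8, 10.8, 19.2 and 25.4 RPM and was higher in KO TTC than KO SC by 1.16 (adjusted p = 6.1e-04). Nfe2l1, named here after its values were seen, had 10.0, 19.1, 6.16 and 15.9 RPM, and KO exceeded WT by 0.87 in the SC pair (adjusted p = 0.11) and by 1.24 in the TTC pair (adjusted p = 0.072), without passing the test.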

How the data were processed

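Ribosome footprints were measured by the authors in 4 libraries of harringtonine-treated neurons, and the deposited table gives RPM at the initiation site of 6352 transcripts. Bowtie, SAMtools and bedtools are named in the submitters' processing notes, with GRCm38/mm10 as build. Versions, the window counted, the annotation and the treatment of reads with several matches are not given in the sources used here. RPM is scaled to all reads of a library: 100% of values were whole multiples of 1 read within 1e-06, and whole reads were recovered from these steps. Symbols came from the study's list by transcript identifier (6351 joined, 38 identifiers mended), and 2 member symbols, read from its page text as Psmbl1 and Psmc9, were set to Psmb1 and Psmd9. Positions and promoter sequences are from RefSeq (GRCm38.p6), with positions for 70 members and a promoter for 57.

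Levels were compared as differences of log2(RPM + 1), which understate changes of low genes, with 2-fold as the limit, beside an exact binomial test (two-sided, conditional on the total) of the reads of 2 libraries with Benjamini-Hochberg adjustment over all transcripts with reads. Reads varied more between libraries than counting allows (mean Pearson statistic 3.28 in the SC pair, 3.17 in the TTC pair, at 20 reads or more), so calls describe libraries. Other tests were an exact interaction test, limma 3.58.1 with trend (mean of at least 1 RPM, pseudocount 1) and edgeR 4.0.16, run with R 4.3.3. These and the binomial test were tried on simulated reads that held counting error only. As the libraries varied more than that, the simulation cannot show how the tests behave here. The other steps ran in Python 3.11.15 (scipy 1.17.1, pandas 2.3.3, numpy 2.4.6, matplotlib 3.10.9). Intervals are exact Poisson 95% intervals, and floors are 3 reads per library. Reads without molecular identifiers are not independent molecules, so both cover counting error only. Members and lists were chosen with earlier results of these data known. Named members were those past 2-fold with an adjusted p of at most 0.05, those at least 1.5-fold lower or higher in both KO libraries at a mean of 5 RPM, the 2 highest of each class, every E1, and those with 0 reads in at least 2 libraries. Of the other pathway genes, those meeting the first criterion were named. Further genes named (among them Psmd1, Psmb2, Psmb5 to Psmb7, Ube2l3, Ube2n, Nfe2l1, Ubb, Ubqln1, Vcp and the targeted genes) were chosen after their values were seen. The values of 1 E2 enzyme are not reported here, though class sums, medians and counts include it.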

Additional observations from a re-analysis of the deposited data

Results flagged for a closer look

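By the exact interaction test, the KO minus WT difference was not the same in the SC and TTC pairs in 4 members. The test called 3.96% of 4642 transcripts. Its adjusted p was 7.44e-04 for Ube2c, 7.58e-04 for Psmb4, 0.00608 for Psmd4 and 0.0135 for Ube2e1. For Ube2c the SC libraries differed by 3.21 in log2(RPM + 1) and the TTC libraries by -0.59, and WT SC was the library at 0. For Psmb4 it was -0.82 and -0.05, for Psmd4 -1.19 and 0.37, and for Ube2e1 -1.38 and 0.67, and in these 3 genes WT SC was the highest library and KO SC the lowest. The test holds counting error only, with 1 library for each combination.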

How the results depend on the processing

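Class medians, which carry no test, moved by at most 0.17 on the log2 scale in 68 alternatives (median-of-ratios factors; 0.14 with the same sum), and 4 changed sign: rescaling to the same sum and median-of-ratios factors gave -0.01 and -0.03 over the core between the KO libraries, and -0.07 and -0.07 over the regulatory particle between the WT libraries. Of 88 alternative counts, 54 were within 1.5 times the reported one. Members past 2-fold, lower and then higher, were 7 and 4 (SC pair), 1 and 8 (TTC pair), 2 and 3 (KO libraries) and 5 and 3 (WT libraries). With a pseudocount of 0.1 RPM, 8 were higher in the SC pair, 4 lower in the TTC pair, 5 lower and 7 higher between the KO libraries, and 5 higher between the WT libraries. At a mean of at least 5 RPM these numbers were 3 and 1, 0 and 4, 1 and 1, and 2 and 1 of 47 members. Of 2314 transcripts at this level, 6.83% and 2.98%, 4.67% and 5.27%, 3.15% and 9.64%, and 6.91% and 9.51% were. At a 1.5-fold limit the numbers of members were 13 and 12, 9 and 14, 8 and 15, and 9 and 11. The shares of all transcripts at this limit and at the pseudocount of 0.1 RPM are not given here. By the exact binomial test the SC pair had 3 lower and 2 higher, the TTC pair 3 higher, the KO libraries 5 higher and the WT libraries 2 lower. Either rescaling gave 4 lower between the KO libraries, and the share of all transcripts under these rescalings is not given here. Leaving out the 2 corrected symbols, an alternative added after the data were seen, moved no count past 1.5 times. Without Psmb10, the chaperones Psmd5, Psmd9 and Psmd10 and the E2 enzymes of other modifiers, class medians moved by at most 0.09.

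Without a filter on low values limma called 38 lower and 26 higher of 5955 transcripts for genotype (members: 2 higher, Psme2 and Psmg1) and 104 and 182 for code (members: 1 higher, Ube2e2), where the filtered fit called 0; edgeR called 0. No paired analysis was possible because each condition has 1 library, so that the conditions share fewer than 2 replicate numbers; the fit of genotype and code already sets KO against WT within each code. Leaving out a library leaves this fit no residual degrees of freedom. Depth also limits the members: 23 of 70 had a mean under 5 RPM, where 1 read in WT TTC is worth 0.685 RPM.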
